A study of Mus musculus with 9 samples.

Results

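Interferon-stimulated genes are described here in the gastrocnemius of newborn mice that lack exon 11 of Shank3. The list held 45 mouse symbols, 29 known mainly as targets of type I interferon and 16 known mainly as targets of interferon gamma, and all 45 were found among the 55471 gene IDs of the count table. The members were chosen by function, and the list was selected on an earlier comparison of the genotypes in these same counts, in which interferon signalling was among the functions with higher levels in the mutant muscle. The differences between genotypes and between mice are therefore given as a description of these animals, and the counts of members past a threshold below are no independent evidence of a difference.

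RNA was sequenced from the gastrocnemius, a calf muscle, of mice at postnatal day 0 to 1, with 1 library for each mouse. The labels give C57BL/6 as the background of both genotypes, and per the methods the KO mice came from C57BL/6JRj matings of heterozygotes and the wildtype supply was C57BL/6. Of the 9 mice, 5 were homozygous for the deletion, Shank3Δ11(-/-), here KO1 to KO5, and 4 were Shank3(+/+) mice, here WT1 to WT4. The deletion is present in every tissue, so that muscle, nerve and immune cells of a KO mouse all carry it, and per the paper it lowers the long SHANK3 isoforms while others remain. The study left KO2 and KO4 out of its comparison for too few reads, and its 7 mice (KO1, KO3, KO5 and WT1 to WT4) are compared below with all 9 beside them.

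Library totals ranged from 26444372 counts in KO5 to 40471957 counts in KO4, so that KO4 had the highest total of the 9 libraries although it was left out. Expression is given as CPM, the counts of a gene per 1000000 counts of the library after TMM normalization. The summed level of 8 skeletal muscle markers was between 54670 and 63109 CPM in all 9 mice. Shank3 itself was counted at 31.5 ± 2.33 CPM in KO1, KO3 and KO5 (SD, n = 3) and 34.3 ± 2.90 CPM in the WT mice (SD, n = 4), a total over all exons that does not check the deletion. Of the 9 mice, 5 (KO1, KO2, KO4, WT1 and WT2) expressed the Y-linked genes, while Xist reached 621 to 927 CPM in the rest. Among those 5, Xist was at 3.21 CPM in KO4 and at or below 0.220 CPM in the others, and whether KO4 holds a trace of another library was not tested. KO5 stood apart by its adipocyte markers, with 1113 CPM summed over 5 genes against 185 to 400 CPM in the other mice.

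Type I interferons (alpha, beta and related proteins) bind the receptor of Ifnar1 and Ifnar2, and interferon gamma binds that of Ifngr1 and Ifngr2. The type I receptor acts through JAK kinases on a complex that holds STAT2 and IRF9 and binds the interferon-stimulated response element (ISRE), whereas the gamma receptor acts mainly through the gamma-activated site (GAS). Type I targets are best known as antiviral effectors, and the gamma targets include GTPases that attack the vacuoles of intracellular parasites and bacteria. Many members respond to both interferons, so the division into 2 groups is one of degree.

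The letters of these elements are shown for a few members as a feature of their sequence. The members were chosen as known interferon targets, so their share of matches is not independent of that choice. RefSeq promoter sequence (GRCm38.p6, 250 bases before to 50 bases after a transcription start) was found for 31 of the 45 members. The ISRE core (GAAA, any 2 bases and GAAA, searched on both strands) was present in 20 of the 31 members (64.5%) and in 3.99% of all 27025 genes with such sequence, and the palindromic GAS letters (TTC, any 3 bases and GAA) were present in 12 of 31 (38.7%) against 9.55% of all genes. The following windows hold the matched letters in capitals, 5′ to 3′ on the strand of the gene. In Ifit1 and Gbp3 the ISRE core lies on the other strand and so reads as TTTC, 2 bases and TTTC. In Igtp and Irgm2 a GAS match ends 2 bases before the capitals, and in Bst2 a GAS match also ends just before them.
Isg15 (chr4:156200871-156200900, minus strand): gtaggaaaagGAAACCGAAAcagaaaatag
Ifit1 (chr19:34640794-34640823, plus strand): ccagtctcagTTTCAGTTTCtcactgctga
Bst2 (chr8:71537577-71537606, minus strand): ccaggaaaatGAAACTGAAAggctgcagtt
Gbp3 (chr3:142559989-142560018, plus strand): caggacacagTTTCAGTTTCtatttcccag
Igtp (chr11:58199512-58199541, plus strand): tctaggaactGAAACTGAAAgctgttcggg
Irgm2 (chr11:58214903-58214932, plus strand): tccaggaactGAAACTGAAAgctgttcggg
Irf1, GAS (chr11:53769914-53769942, plus strand): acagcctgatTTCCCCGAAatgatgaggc
Gbp7, GAS (chr3:142530220-142530248, plus strand): tccgttttctTTCCAGGAAaagcagaagc

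The ISRE core was found in 10 of 19 type I targets and in 10 of 12 interferon gamma targets, and the GAS letters in 4 of 19 and 8 of 12, so both motifs occurred in both groups. A match of letters is not evidence that a factor binds there, and the absence of a match says only that these letters are not in the window. Igtp and Irgm2, neighbours on chromosome 11 with near-identical windows, are shown because their levels, described below, followed another order of mice than those of Isg15, Ifit1, Bst2 and Gbp3.

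Per kilobase of exon, the level of the members spanned a wide range. Ifi27, a small hydrophobic protein that type I interferon induces, had the highest mean at 26.0 CPM per kb (19.1 to 36.1 over the 9 mice), followed by Bst2, the tetherin that holds budding virus at the cell surface, at 24.5 CPM per kb (12.2 to 40.1), and the ranges of these neighbours overlapped. Igtp was at 12.9 CPM per kb (9.79 to 16.0) and Irgm2 at 6.52 CPM per kb (4.46 to 9.22), and these ranges did not overlap. Ifi35 followed at 4.57 CPM per kb (2.75 to 6.49), within reach of Irgm2. At the other end, Oas3, Tgtp1 and Tgtp2 had mean levels of 0.253, 0.183 and 0.173 CPM and did not pass the filter on low counts, so that 42 of the 45 members entered the fits.

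The type I targets were highest in KO3 and KO4. Their summed level was 188, 147, 275, 274 and 158 CPM in KO1 to KO5 and 175, 166, 182 and 210.0 CPM in WT1 to WT4. KO3 and KO4 lay above every other mouse, KO2 and KO5 lay below every WT mouse, and KO1 lay within the WT range. For the gamma targets the sums were 145, 129, 163, 137 and 113 CPM in KO1 to KO5 and 149.9, 129, 118 and 113 CPM in WT1 to WT4, with KO3 highest, WT1 next and KO4 within the WT range. Igtp and Irgm2, the gamma targets with the highest mean CPM, were lowest in KO4. The 7 guanylate binding proteins alone summed to 62.3 CPM in KO4, against 39.5 to 54.3 CPM in the WT mice. In a bulk library a higher level may come from more cells of a type or from more RNA in each cell, and these cannot be told apart.

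**Figure D1:**
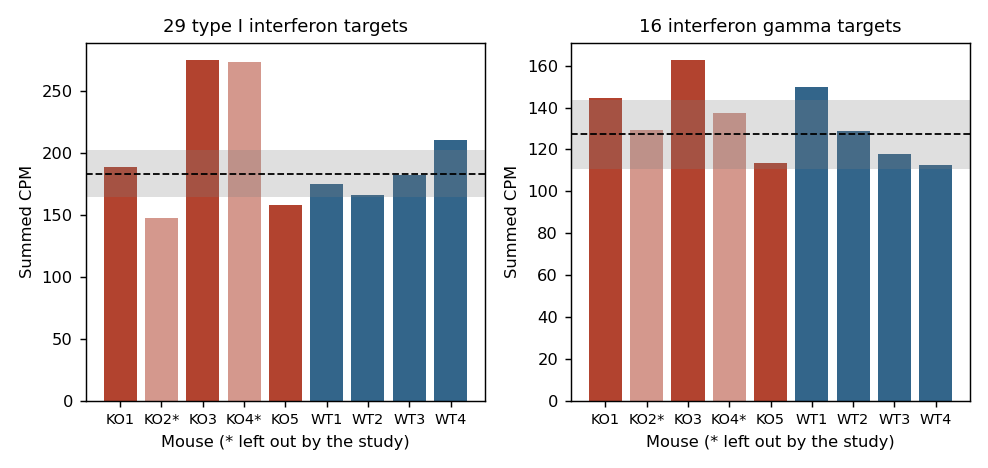
Summed CPM of the 29 type I targets (left) and the 16 interferon gamma targets (right) in each mouse, KO in red (paler for KO2 and KO4) and WT in blue, with the WT mean as a dashed line and its SD (n = 4) as a grey band. In the left panel KO3 (275 CPM) and KO4 (273.6 CPM) stand above all other mice, and in the right panel only KO3 (163 CPM) stands above all WT mice.

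Taken gene by gene, the same mice were high. Over the 29 type I targets, the median ratio to the WT mean was 1.73 in KO3, 1.62 in KO4, 0.959 in KO1, 0.815 in KO2 and 0.778 in KO5, whereas the median over all 21735 genes tested in the 9 mice was between 0.975 and 0.995 in the KO mice. KO3 was the highest of the 9 mice for 17 of the 29 and KO4 for 7, while KO5 was the lowest for 10 and KO2 for 8. For the 16 gamma targets the median ratios were 1.37 in KO3, 1.18 in KO4, 1.11 in KO1, 0.907 in KO5 and 0.870 in KO2, again highest in KO3 and KO4.

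KO3 and KO4 were the 2 highest of the 9 mice for 27 of the 42 members tested, 19 of 28 type I targets and 8 of 14 gamma targets, beside 5.48% of all genes tested. KO3 and KO4 each exceeded all 4 WT mice for 29 of the 42 members, beside 8.72% of all genes. KO2 was below all WT mice for 18 of the 42 and KO5 for 18, beside 20.9% and 23.8% of all genes. KO5 was above all WT mice for 3 members, beside 20.3%, and KO4 was below them for 2, Igtp and Irgm2, beside 23.6%. These mice were picked out after their levels were seen, and the counts describe them.

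**Figure D2:**
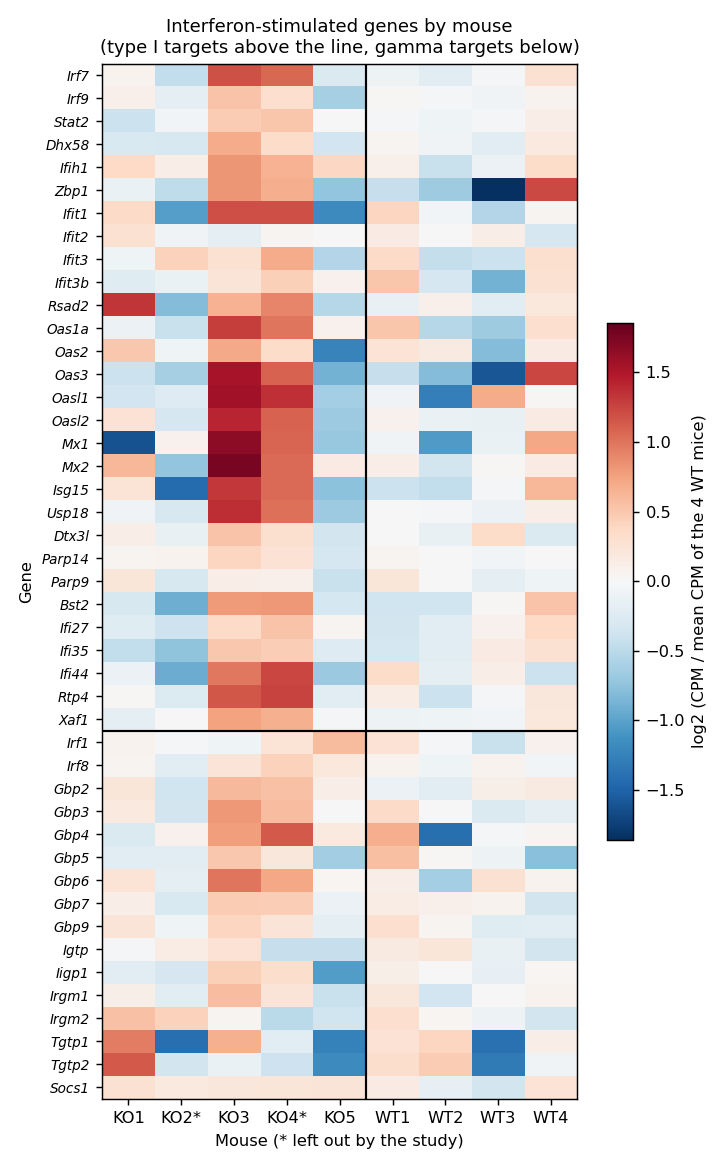
Each row is a member and each column a mouse, and the colour is the log2 ratio of the mouse's CPM to the mean CPM of the 4 WT mice (red higher, blue lower). The columns of KO3 and KO4 are red over most type I targets and most guanylate binding proteins, and 1 or both are below the WT mean for Ifit2, Irf1, Igtp, Irgm2, Tgtp1 and Tgtp2.

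Among the transcription factors, 4 of 5 were highest in KO3 and KO4. Irf7, which amplifies the type I response, was at 4.11, 2.88, 8.95, 8.27 and 3.26 CPM in KO1 to KO5 and 3.70, 3.40, 3.89 and 4.80 CPM in WT1 to WT4. Stat2, the STAT particular to type I signalling, was at 12.3, 15.6, 22.5, 23.2 and 16.0 CPM in KO1 to KO5 and 15.9, 15.3, 15.9 and 17.5 CPM in WT1 to WT4. In both genes KO3 and KO4 exceeded all the other mice, which overlapped between the genotypes.

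Irf9, the DNA-binding partner of STAT2, was at 14.7, 12.3, 19.9, 17.1 and 8.96 CPM in KO1 to KO5 and 14.0, 13.4, 13.2 and 14.5 CPM in WT1 to WT4. Irf8, a factor of macrophages and dendritic cells, was at 4.08, 3.42, 4.63, 5.30 and 4.50 CPM in KO1 to KO5 and 4.13, 3.73, 4.10 and 3.79 CPM in WT1 to WT4. Irf9 had its low end in KO5 and Irf8 differed little between mice, though KO3 and KO4 were highest in each. Irf1, an early target of interferon gamma that carries the GAS window shown above, was at 9.98, 9.25, 9.01, 11.3 and 14.3 CPM in KO1 to KO5 and 11.5, 9.38, 7.16 and 10.1 CPM in WT1 to WT4. Here KO5 was highest, and KO3 lay within the WT range.

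The cytosolic sensors Ifih1 (MDA5) and Dhx58 (LGP2) recognise double-stranded RNA. Ifih1 was at 4.05, 3.42, 5.51, 4.88 and 4.09 CPM in KO1 to KO5 and 3.33, 2.34, 2.89 and 3.95 CPM in WT1 to WT4. KO1, KO3, KO4 and KO5 lay above all 4 WT mice, KO1 and KO5 by little. Dhx58 was at 1.98, 1.96, 3.88, 3.05 and 1.88 CPM in KO1 to KO5 and 2.50, 2.31, 2.10 and 2.74 CPM in WT1 to WT4, with KO3 and KO4 above and the other 3 KO mice below the WT range. Zbp1, a sensor of Z-form nucleic acids, reached 0.881 CPM in WT4, 0.662 CPM in KO3 and 0.600 CPM in KO4 and was at 0.345 CPM or less in the other mice.

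The Ifit proteins, which bind foreign RNA, did not share an order of mice. Ifit1 was at 1.41, 0.542, 2.52, 2.53 and 0.488 CPM in KO1 to KO5 and 1.45, 1.07, 0.757 and 1.14 CPM in WT1 to WT4. KO3 and KO4 were alike and above the other 7 mice. Ifit2 was at 17.7, 13.8, 12.8, 15.1 and 14.6 CPM in KO1 to KO5 and 16.1, 14.4, 15.8 and 11.7 CPM in WT1 to WT4, with KO1 highest, WT4 lowest and KO3 and KO4 inside the WT range. Ifit3 was at 1.76, 2.51, 2.27, 3.00 and 1.28 CPM in KO1 to KO5 and 2.37, 1.36, 1.41 and 2.28 CPM in WT1 to WT4, with KO4 highest and KO3 within the WT range. Ifit3b ranged from 0.482 CPM in WT3 to 1.26 CPM in WT1. Of the 50-base words of Ifit3 transcripts, 51.2% also occur in other genes, mainly Ifit3b, so how the reads were divided between these neighbours is uncertain.

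Rsad2 (viperin), an enzyme that makes a chain-terminating nucleotide, was at 18.6, 4.23, 11.6, 13.9 and 5.14 CPM in KO1 to KO5 and 6.69, 7.93, 6.47 and 8.49 CPM in WT1 to WT4. KO1 was the highest mouse, KO4 and KO3 followed, and the remaining KO mice lay below all WT mice.

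The oligoadenylate synthetases make the messenger that activates RNase L, and the Oasl genes encode related proteins. Oasl2 was at 5.58, 3.73, 12.4, 9.94 and 2.89 CPM in KO1 to KO5 and 4.90, 4.26, 4.20 and 5.16 CPM in WT1 to WT4. KO3 and KO4 were well above the rest. Oas1a was at 0.753, 0.610, 1.98, 1.62 and 0.863 CPM in KO1 to KO5 and 1.17, 0.562, 0.516 and 1.01 CPM in WT1 to WT4, again highest in KO3 and KO4, though 57.6% of its 50-base words also occur in Oas1g. Oas2 was at 2.89, 1.93, 3.34, 2.58 and 0.863 CPM in KO1 to KO5 and 2.43, 2.31, 1.17 and 2.28 CPM in WT1 to WT4, where KO3, KO1 and KO4 exceeded the WT mice and KO5 was lowest. Oasl1 reached 1.89 CPM in KO3 and 1.64 CPM in KO4 and was between 0.266 and 1.03 CPM in the others, and Oas3 reached 0.599 CPM in KO3, 0.490 CPM in WT4 and 0.444 CPM in KO4.

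The Mx GTPases, which block viral replication but are defective in the C57BL/6 strain, were expressed at low levels. Mx1 was at 2.14 CPM in KO3 and 1.44 CPM in KO4 and between 0.220 and 1.11 CPM in the other 7 mice. Mx2 was at 2.30 CPM in KO3, 1.41 CPM in KO4 and 1.04 CPM in KO1 and between 0.406 and 0.751 CPM in the others. KO5, at 0.750 CPM, lay at the top of the WT range.

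Isg15, a ubiquitin-like protein joined to other proteins, was at 2.29, 0.711, 4.79, 3.99 and 1.13 CPM in KO1 to KO5 and 1.45, 1.39, 1.89 and 2.94 CPM in WT1 to WT4. KO3 and KO4 were highest, WT4 came next, and KO2 and KO5 were below all WT mice. Usp18, the protease that removes Isg15 and restrains the type I receptor, was at 1.04, 0.881, 2.80, 2.19 and 0.675 CPM in KO1 to KO5 and 1.08, 1.07, 0.998 and 1.17 CPM in WT1 to WT4. The WT mice were close together and KO3 and KO4 were 2.60 and 2.03 times their mean.

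Parp9 and Dtx3l form a ubiquitin ligase complex and share 458 exon bases on opposite strands, and since the strand setting of the counting is not given in the sources used here, reads in that stretch cannot be told apart. Parp9 was at 13.6, 9.48, 12.6, 12.4 and 8.70 CPM in KO1 to KO5 and 13.6, 11.6, 10.3 and 11.1 CPM in WT1 to WT4, without KO3 or KO4 at the top. Dtx3l was at 7.94, 6.64, 10.6, 8.95 and 5.74 CPM in KO1 to KO5 and 7.24, 6.60, 9.23 and 6.04 CPM in WT1 to WT4. Parp14, an ADP-ribosyltransferase of the same locus, was at 10.2, 10.3, 13.0, 11.9 and 7.91 CPM in KO1 to KO5 and 10.2, 9.85, 9.50 and 9.89 CPM in WT1 to WT4. KO3 was highest for Dtx3l and Parp14, followed by WT3 for Dtx3l and by KO4 for Parp14, and KO5 was lowest for the 3 genes.

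Of the remaining type I effectors, 5 of 6 were highest in KO3 and KO4. Bst2 was at 16.8, 11.0, 35.7, 36.2 and 16.5 CPM in KO1 to KO5 and 16.0, 16.0, 21.0 and 29.7 CPM in WT1 to WT4, and WT4 came next. Ifi27 was at 31.3, 28.0, 46.8, 53.0 and 38.0 CPM in KO1 to KO5 and 28.8, 31.8, 38.5 and 47.1 CPM in WT1 to WT4, with KO4 highest and KO3 just under WT4. Ifi35 was at 5.77, 4.74, 11.2, 10.9 and 6.75 CPM in KO1 to KO5 and 6.35, 6.92, 8.78 and 9.69 CPM in WT1 to WT4. For these genes WT4 was the highest WT mouse and the span among the WT mice was itself wide.

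Xaf1, a protein linked to cell death, was at 4.49, 5.05, 8.47, 7.96 and 4.91 CPM in KO1 to KO5 and 4.74, 4.79, 4.89 and 5.81 CPM in WT1 to WT4. Ifi44 was at 1.91, 1.08, 4.06, 4.86 and 1.28 CPM in KO1 to KO5 and 2.62, 1.80, 2.24 and 1.57 CPM in WT1 to WT4. Rtp4, a chaperone of membrane receptors, was at 3.98, 3.29, 8.70, 9.37 and 3.38 CPM in KO1 to KO5 and 4.31, 2.96, 3.86 and 4.50 CPM in WT1 to WT4. For these 3 genes the levels in KO3 and KO4 stood clear of the other 7 mice, whose genotypes overlapped.

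The guanylate binding proteins, GTPases that coat pathogen vacuoles, were highest in KO3 and KO4 for 5 of 7 genes. Gbp2 was at 4.14, 2.74, 5.36, 5.17 and 3.83 CPM in KO1 to KO5 and 3.27, 3.05, 3.82 and 3.98 CPM in WT1 to WT4. Gbp3 was at 8.25, 5.76, 12.8, 10.8 and 7.31 CPM in KO1 to KO5 and 9.34, 7.28, 6.06 and 6.40 CPM in WT1 to WT4. Gbp7 was at 15.2, 11.5, 19.4, 19.3 and 13.0 CPM in KO1 to KO5 and 15.5, 15.0, 14.7 and 11.1 CPM in WT1 to WT4. In each of them KO3 and KO4 lay above the other 7 mice.

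Gbp4 was at 1.63, 2.07, 3.34, 4.31 and 2.21 CPM in KO1 to KO5 and 3.14, 0.740, 1.93 and 2.02 CPM in WT1 to WT4, with WT2 the lowest of the 9 mice and WT1 the highest of the WT mice. Gbp6 was at 2.35, 1.76, 3.94, 3.26 and 2.03 CPM in KO1 to KO5 and 2.16, 1.27, 2.41 and 2.06 CPM in WT1 to WT4, and 70.7% of its 50-base words occur in other genes, mainly in the overlapping Gm43302. Gbp9 was at 17.8, 14.4, 20.0, 17.8 and 13.5 CPM in KO1 to KO5 and 18.8, 15.6, 12.9 and 13.1 CPM in WT1 to WT4 and Gbp5 at 1.22, 1.22, 1.98, 1.62 and 0.900 CPM in KO1 to KO5 and 2.06, 1.42, 1.31 and 0.816 CPM in WT1 to WT4, and in both WT1 was among the 2 highest mice.

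The immunity-related GTPases did not share 1 pattern. Iigp1 was at 4.42, 4.06, 6.90, 6.34 and 2.48 CPM in KO1 to KO5 and 5.45, 5.06, 4.54 and 5.19 CPM in WT1 to WT4, with KO3 and KO4 highest and KO5 lowest. Irgm1 was at 11.0, 8.94, 15.3, 12.1 and 7.73 CPM in KO1 to KO5 and 12.0, 8.02, 10.4 and 10.8 CPM in WT1 to WT4, with KO3 highest and KO4 level with WT1. Neither gene separated the genotypes.

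Igtp was at 26.2, 29.5, 32.3, 19.8 and 20.0 CPM in KO1 to KO5 and 30.1, 31.3, 24.4 and 21.1 CPM in WT1 to WT4. Irgm2 was at 34.0, 31.1, 24.0, 16.4 and 18.0 CPM in KO1 to KO5 and 28.9, 23.8, 21.8 and 18.4 CPM in WT1 to WT4. KO4, among the highest mice for most members, was the lowest of the 9 for both genes, and KO1 was the highest for Irgm2. The pair share 162 exon bases on the same strand. Tgtp1 and Tgtp2, GTPases of the same family, were at or below 0.376 CPM in every mouse, and 81.2% and 86.6% of their 50-base words occur in another gene, mainly in each other. Socs1, the inhibitor of JAK kinases that interferon gamma induces, was nearly level, with 3.58, 3.32, 3.37, 3.42 and 3.45 CPM in KO1 to KO5 and 3.27, 2.63, 2.31 and 3.49 CPM in WT1 to WT4.

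Upstream of these genes, the interferons themselves were almost uncounted. Of 21 interferon genes, 13 had no count in any mouse, Ifnb1 among them, and a count of 0 in all 9 libraries together allows up to 0.0105 CPM (3 counts, counting error only). Ifng had 1 count in KO2 and 1 in WT1, and Ifnk had 2 counts in WT1. Of the 14 genes of the alpha and Ifnab group, which resemble each other closely, 3 had 1 count each in KO3 (Ifna2, Ifna16 and Ifnab), 3 had 1 count each in KO4 (Ifna6, Ifna7 and Ifnab) and none had a count in the other 7 mice. These are single counts per gene and mouse, and whether they differ between mice was not tested. Ifnz was the only one counted in every mouse, at 0.0888 to 0.237 CPM.

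KO3 and KO4 were not the 2 highest mice for any of the 6 receptor genes. Of the 5 tested, KO4 exceeded all 4 WT mice for 3, beside 21.7% of all genes, and KO3 for 0, beside 17%. These 3 were Ifngr1, at 46.4 CPM in KO4 against at most 40.8 CPM in the other mice, and, by little, Ifngr2 and Il10rb. Ifnar1 ranged from 50.1 to 62.4 CPM, Ifnar2 from 19.7 to 23.1 CPM, Ifngr1 from 25.7 to 46.4 CPM and Ifngr2 from 28.6 to 41.9 CPM. The shared chain Il10rb ranged from 17.3 to 23.2 CPM, and Ifnlr1, of the lambda receptor, did not exceed 0.207 CPM. Of the 5 receptor genes tested, 0 had an unadjusted p below 0.05 in edgeR's quasi-likelihood test of the 7 mice, beside 1.16% of all genes higher and 0.917% lower, with log2 fold changes (KO minus WT) from 0.02 to 0.12.

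Among the kinases and STATs that carry the signal, Tyk2, a kinase of the type I receptor, was highest in KO4 and KO3, within a range of 14.4 to 17.7 CPM. Jak1 ranged from 113 to 151 CPM, Jak2 from 29.5 to 36.4 CPM and Stat3 from 85.3 to 142 CPM, with KO3 and KO4 inside the range of the other mice. None of these 4 genes had an unadjusted p below 0.05.

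Further targets, listed from general knowledge of the pathway and with earlier results of these data known, were counted next to the members. Of 22 other type I targets, 21 were tested, and KO3 and KO4 were the 2 highest mice for 10 of them, beside 5.48% of all genes. Of 19 other gamma targets, 16 were tested and 3 had this order. In the 7 mice, 1 of the 21 and 0 of the 16 had an unadjusted p below 0.05 and were higher in KO, beside 1.16% of all genes, and 0 were lower, beside 0.917%. The gene was Sp100, a nuclear body protein, at 3.20, 2.74, 4.16, 4.39 and 3.98 CPM in KO1 to KO5 and 3.39, 2.19, 2.55 and 2.42 CPM in WT1 to WT4, with a log2 fold change of 0.52 ± 0.20 (SE). Of 10 sensors and adaptors tested, Ddx58 (RIG-I) also passed this threshold, at 14.6, 12.7, 14.4, 12.4 and 13.1 CPM in KO1 to KO5 and 13.2, 11.0, 10.2 and 9.30 CPM in WT1 to WT4, with a log2 fold change of 0.36 ± 0.14. Of the 4 inhibitors 0 passed. With Benjamini-Hochberg adjustment over 21809 genes none of these genes was called.

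**Figure D3:**
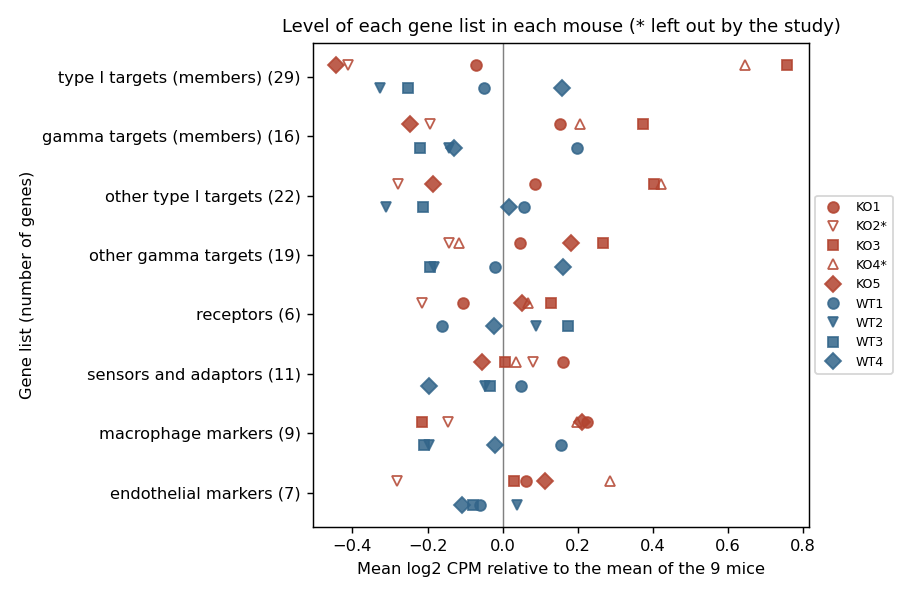
Mean log2 CPM of each gene list relative to the mean of the 9 mice (horizontal axis), with KO mice in red (open symbols for KO2 and KO4) and WT mice in blue. KO3 and KO4 lie at 0.76 and 0.65 for the type I targets and at 0.40 and 0.42 for the other type I targets, while the receptors lie between -0.22 and 0.17 in all mice.

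The comparison of genotypes asked whether the loss of exon 11 goes with another level of these genes. In the 7 mice, 37 of 42 members had a log2 fold change above 0, beside 47.8% of all 21809 genes, and the median was 0.22 for the type I targets and 0.18 for the gamma targets, beside -0.01 for all genes. The largest were Mx2, at 1.01 ± 0.37, Rsad2, at 0.67 ± 0.34, and Oasl2, at 0.59 ± 0.39 (SE). The 5 members below 0 were Ifit3, Ifi35, Gbp5, Igtp and Iigp1, the lowest being Iigp1 at -0.14 ± 0.28.

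By the study's threshold (p below 0.05 with a false discovery rate below 25%), 0 of 42 members were called in the 7 mice, beside 0% of all genes. At an unadjusted p below 0.05, 2 members were higher in KO, Mx2 and Ifih1, beside 1.16% of all genes, and 0 were lower, beside 0.917%. DESeq2 gave 0 called members and 3 at an unadjusted p below 0.05, namely Mx2, Ifih1 and Rsad2, beside 6 and 393 of all 21809 genes. With limma-voom 0 of all genes were called. The study, which used limma, did report differentially expressed genes at its threshold in these mice, and why the results differ was not tested. The 3 KO mice lay above all 4 WT mice for 1 member, Ifih1, beside 1.4% of all genes, and below them for 0 members, beside 1.44%. The log2 fold change of Ifih1 was 0.54 ± 0.22 in the 7 mice and 0.50 ± 0.19 in all 9 (SE).

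KO3 carried the direction of the 7-mouse comparison. Without it the median log2 fold change of the type I targets was -0.12, 13 of 42 members stayed above 0, and 0 members were higher at an unadjusted p below 0.05. Without KO5, which had the lowest type I sum of the 7 mice, the median was 0.53 and 9 members passed that threshold. For the gamma targets the median was 0.08 without KO3 and 0.30 without KO5. The summed type I level of the 3 KO mice was 207 ± 60.7 CPM (SD, n = 3) against 183 ± 19.2 CPM in the WT mice (SD, n = 4), and the difference of the means was smaller than the SD of the KO mice.

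With all 9 mice, 38 of 42 members had a log2 fold change above 0, beside 50.5% of 21735 genes, with a median of 0.27 for the type I targets and 0.17 for the gamma targets. Of the members, 0 were called, beside 0% of all genes, and 1, Ifih1, had an unadjusted p below 0.05 and was higher, beside 1.16%, while 0 were lower, beside 0.874%. The summed type I level was 208 ± 61.9 CPM (SD, n = 5) in the KO mice, and that of the gamma targets 137 ± 18.3 CPM against 127 ± 16.5 CPM in the WT mice. Leaving out KO3 from the 9 gave a type I median of 0.11, and leaving out KO4 gave 0.14.

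**Figure D4:**
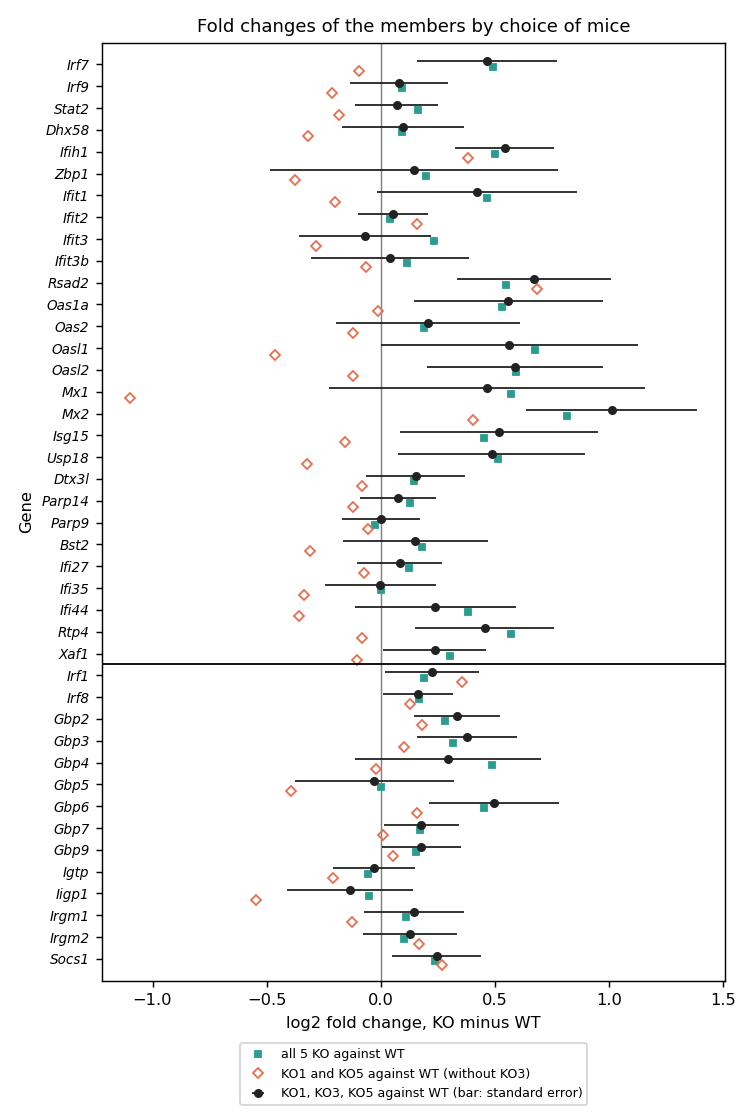
Log2 fold change (KO minus WT) of the 42 members tested, type I targets above the line and gamma targets below it, for the 7 mice (black, bars are the standard error), all 9 mice (green squares) and the 7 mice without KO3 (open orange diamonds). Most diamonds of the type I targets lie below 0, while Rsad2, Ifih1, Mx2 and Ifit2 stay above it.

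Markers of other cells were set beside these levels. The summed level of 9 macrophage markers was 270, 213, 195, 275 and 269 CPM in KO1 to KO5 and 204 to 259 CPM in the WT mice. KO3 was the lowest of the 9 mice, and KO1, KO4 and KO5 all lay above every WT mouse. By mean log2 level relative to the 9 mice, KO1 (0.22) and KO5 (0.21) lay above KO4 (0.20). The 7 endothelial markers summed to 722, 586, 750, 831 and 757 CPM in KO1 to KO5 and 646 to 731 CPM in the WT mice. By their mean log2 level, KO3 (0.03) lay within the WT range (-0.11 to 0.04). KO1 (0.06), KO4 (0.29) and KO5 (0.11) lay above that range and KO2 (-0.28) below it. The 10 T and NK cell markers summed to 2.58 to 7.61 CPM, with 6.24 CPM in KO3 and 4.31 CPM in KO4. Of these, Cd3e ranged from 1.04 CPM in WT4 to 5.10 CPM in KO3 and was at 2.30 CPM in KO4. Cd3d was at 0 in 8 of the 9 mice. The 3 markers of plasmacytoid dendritic cells, a main source of type I interferon, summed to 0.275 to 0.745 CPM. The 5 keratinocyte markers summed to 6.09, 8.77, 19.8, 19.4 and 23.2 CPM in KO1 to KO5 and 10.9, 19.7, 11.2 and 49.7 CPM in WT1 to WT4. Among the WT mice, WT4 had the highest type I sum and WT2 the lowest. The 6 neutrophil markers were lowest in KO3 (2.71 CPM), and B cell markers did not exceed 2.25 CPM.

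KO3 and KO4 differed in Xist and the Y-linked genes, in the macrophage markers and in depth, with 31943784 and 40471957 counts. The share of counts from mitochondrial genes was 5.42% in KO3 and 7.88% in KO4, the highest of the 9 mice, against 3.81% to 6.54% in the WT mice. With Xist as a covariate in the 7 mice, the median log2 fold change of the type I targets was 0.14, against 0.22 without it, and that of the gamma targets 0.20, against 0.18. The part of the other measures in the level of the interferon-stimulated genes was not tested.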

How the data were processed

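Muscle RNA-seq of 9 newborn mice was used, each mouse giving 1 library. The authors deposited raw counts: they mapped reads to mm10 with HISAT2 and summed them per Ensembl gene with featureCounts. Neither the gene annotation they used nor the strand setting and the handling of multi-mapped reads was found in the labels or the methods. Columns that were not used numbered 0. Symbols and exons were taken from GENCODE. The members and gene lists were chosen with earlier results of these data known. All 45 members are named, with values by mouse where the mean was at least 1 CPM. Of the pathway list, receptors, JAKs, STATs, ligands with a count and genes with an unadjusted p below 0.05 are named.

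Genotypes were compared with edgeR 4.0.16 in R 4.3.3 (filterByExpr, TMM, robust quasi-likelihood fit and test over all genes, Benjamini-Hochberg adjustment), on the 7 mice the study kept, where 21809 genes passed the filter with a minimum count of 10. Calls followed the study's threshold, p below 0.05 with an FDR below 25%. The script was tested on simulated counts. Alternatives were all 9 mice, RLE and upper-quartile factors, other filters, DESeq2 1.42.0, limma-voom (limma 3.58.1), Xist as a covariate, a replicate block and leaving out each mouse. All p-values measure the spread between these mice. Read sharing was taken as the share of a member's 50-base transcript words found in transcripts of other genes. Promoter sequence was from RefSeq. A gene of the pathway list is not reported here.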

Additional observations from a re-analysis of the deposited data

Results flagged for a closer look

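Within each genotype, every member's highest and lowest mouse was compared with its nearest neighbour by Dixon's test at the 95% level, in 94 tests (summed levels included), and 3 values stood apart, while chance gives about 1 in 20. Oas2 was at 1.17 CPM in WT3 against 2.28 to 2.43 CPM in the other WT mice. Xaf1 was at 5.81 CPM in WT4 against 4.74 to 4.89 CPM in the other WT mice. Tgtp2, which shares most of its sequence with Tgtp1, was at 0.376 CPM in KO1 against 0.075 to 0.158 CPM in the other KO mice.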

How the results depend on the processing

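The number of called members was 0 in the comparison of 7 mice and under all alternatives except the replicate block. The labels number the mice within each genotype and do not say whether equal numbers mark pairs. Correlations of same-numbered mice were 0.373, 0.0524, 0.357 and 0.101 for numbers 1 to 4, and those of differently numbered mice ran from -0.441 to 0.282. The same-numbered WT mouse had the highest correlation for KO1, KO3 and KO4, and WT1 had it for KO2, at 0.269. Same-numbered mice were alike in Xist and the Y-linked genes for numbers 1 to 3 and unlike for number 4. The part of sex in these correlations was not tested. The correlations cannot settle whether the numbers mark pairs, so the block is given only as an alternative. With the block, 1 member was called (Rsad2, FDR 0.118 in edgeR's quasi-likelihood test with Benjamini-Hochberg adjustment), 9 members and 844 of all genes had an unadjusted p below 0.05, and in all 9 mice the block gave 7 members and 0 called. The members higher at an unadjusted p below 0.05 numbered 2 in the 7 mice, 1 in all 9 mice, and 0 to 9 when 1 mouse was left out (0 without KO3 or WT2, 1 without WT3, 9 without KO5). In the 9 mice they numbered 0 without KO3 and 1 without KO4, alternatives chosen after seeing the data. The members lower numbered 0, and 0 to 1 when 1 mouse was left out (Iigp1 without KO3). Of all genes, 453 had an unadjusted p below 0.05, 972 without the filter on low counts, and 224 to 968 when 1 mouse was left out (968 without KO1, 794 without KO3, 224 without KO5). The median log2 fold change of the type I targets, 0.22, ran from -0.12 without KO3 to 0.53 without KO5, and was 0.46 without the members that both interferons induce, 0.42 with the replicate block, 0.14 with Xist as a covariate and 0.13 with limma-voom. By the mean log2 level in place of the sum, 2 KO mice and not 1 lay above every WT mouse for the gamma targets. Leaving out KO3 turned the sign of 24 of 42 single members, against 1 to 6 under the other alternatives and 0 with at least 10 counts in every mouse. The cause was not tested. The number of mice, 3 against 4, and the low counts of Mx1, Mx2, Oasl1 and Zbp1 limit the precision.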

Other observations

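The following genes of the pathway lists were picked after their values were seen. Cxcl9, a chemokine that interferon gamma induces, did not follow the order of mice of the type I targets. It was at 1.36 CPM in KO4, the lowest of the 9 mice, and at 13.9, 9.55, 9.04 and 17.8 CPM in KO1, KO2, KO3 and KO5, against 12.8, 6.15, 3.72 and 8.42 CPM in WT1 to WT4. Tap1, the peptide transporter of antigen presentation, was at 10.7 CPM in KO3 and 7.80 CPM in KO4, above all WT mice, of which WT4 was highest at 7.18 CPM. Psmb9, a subunit of the immunoproteasome, was at 2.35 CPM in WT4, 2.30 CPM in KO4, 2.25 CPM in KO5 and 2.08 CPM in KO3, and at 1.14 CPM or less in the other 5 mice. Ifitm3, a membrane protein that blocks viral entry, was at 84.0 CPM in KO4 and 57.7 CPM in KO3, and between 31.6 and 48.0 CPM in the other mice. Eif2ak2, the kinase PKR, was at 23.2 CPM in KO4 and 20.1 CPM in KO3, and between 12.7 and 17.2 CPM in the other mice.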
